A study of Populus trichocarpa
Populus deltoides with 74 samples.

Results

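R-AP2 is 1 of 217 array features measured in buds and shoot tips of wild type poplar, with Populus trichocarpa and Populus deltoides both named as the organism. It is a gene named for APETALA2, and it was selected on its measured levels in these same groups, because floral against vegetative buds, male against other trees, age and shoot position had already been seen to differ in it. Its levels and their differences are therefore given below as a description, with no test. RNA labelled with Cy5 was hybridised to oligonucleotides spotted in the wells of microplates, and 74 arrays came from 37 RNA isolations in 19 groups. Lateral vegetative buds came from trees of ages 1, 2, 5 and 6 years and floral buds from trees of age 6, with no sex stated. A further pair of groups held floral and lateral vegetative buds of male trees of age 6. Shoot tips came from female trees in May and in June at ages 1, 2, 5 and 6, and basal shoot tips from female trees in May and in June at ages 5 and 6. Tips not labelled basal are called upper tips here. Each group had 2 isolations, called a and b, except the June upper tips of age 5, which had 1, and each isolation was hybridised to 2 wells. The design text treats the isolations as biological replicates. Whether separate trees were used is not said in the labels, and the spread between them may be technical.

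AP2-type proteins are plant transcription factors with an AP2 DNA-binding domain, and they belong to the larger AP2/ERF family. In Arabidopsis, APETALA2 acts in sepal and petal identity and restricts the organ identity gene AGAMOUS to the inner whorls, and AP2 and its close relatives also delay flowering. The microRNA miR172 represses them, and miR172 rises as plants age, downstream of the miR156 and SPL age pathway. Other members of the family act in growth of organs or in responses to ethylene and stress. Which of them the R-AP2 oligo stands for is not given in the sources used here, and 0 of the 217 IDs matched the reference gene table, so no position or sequence is given. The array held 0 other IDs of an AP2/ERF or SPL type.

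The deposited values were read as log2 intensities. They ran from 1.10 to 16.25 over the arrays, with array medians of 8.05 to 8.79 and array maxima of 12.74 to 16.25. No background values came with them, so signal over background is unknown, and the number of arrays limits the precision. The arrays were quantile-normalized, the wells of an isolation were averaged, and a model with a mean for each group gave each difference its standard error (SE). Control oligos printed beside the poplar ones are not marked as such in the IDs. Differences between paired wells were used to sort the isolations into 5 sets, with the number of sets fixed and not estimated from the data. These well-difference sets were inferred after the data were examined, no label gives a plate or date, and whether they are batches is not known. The May upper tips lie in a single set of their own apart from 1 isolation of May basal tips, and the June upper tips of age 1 are alone in theirs. The floral organ identity and meristem identity genes checked the bud labels. All 6 of 6 were higher in floral than in vegetative buds of age 6, in male trees as in the trees of unstated sex.

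R-AP2 was among the brightest oligos in every sample. It had a value on all 74 arrays, its deposited values ran from 11.59 to 13.27, and it ranked between 2 and 21 of the oligos of its array. By its mean deposited value it ranked 10 among all oligos. Its residual SD between isolations of a group was 0.18, below the median of 0.30 over all oligos, and 30 oligos had a smaller one. Wells of an isolation differed by a median of 0.19 and by up to 0.78. The wells furthest apart lay in June upper tips of age 1 (12.48 and 11.70) and in May basal tips of age 5 (11.84 and 12.59). The SDs given for groups are between isolations with wells averaged, and do not show this spread.

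The highest mean level belonged to male vegetative buds of age 6, at 13.49 ± 0.03 (SD, n = 2 isolations). June basal tips of age 6 followed at 13.23 ± 0.002 (SD, n = 2). R-AP2 ranked 4 on each array of these tips, and quantile normalization gives equal ranks nearly equal values. As deposited the SD of these tips was 0.06. Below both groups came vegetative buds of age 5 at 12.87 ± 0.29, May upper tips of age 1 at 12.83 ± 0.32, June basal tips of age 5 at 12.69 ± 0.13 and vegetative buds of age 6 at 12.64 ± 0.23 (SD, n = 2 each). A middle range held vegetative buds of age 1 at 12.38 ± 0.39, male floral buds at 12.38 ± 0.05, floral buds of unstated sex at 12.35 ± 0.14, May basal tips of age 5 at 12.23 ± 0.03 and May basal tips of age 6 at 12.17 ± 0.10 (SD, n = 2 each).

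Under these lay vegetative buds of age 2 at 12.11 ± 0.12, June upper tips of age 1 at 12.08 ± 0.01 and of age 6 at 12.08 ± 0.21, May upper tips of age 6 at 12.07 ± 0.06 and May upper tips of age 2 at 11.94 ± 0.28 (SD, n = 2 each). The lowest levels were in May upper tips of age 5 at 11.75 ± 0.02 (SD, n = 2), in the single isolation of June upper tips of age 5 at 11.75, and in June upper tips of age 2 at 11.66 ± 0.04 (SD, n = 2). The group means spanned 1.83. Of the 18 pairs of neighbours in this order, 4 had isolations that did not overlap, and 4 gaps were larger than the residual SD. The steps from male vegetative buds to June basal tips of age 6, and from these to vegetative buds of age 5, exceeded the residual SD with no overlap. Most other neighbours do not differ beyond their spread.

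**Figure D1:**
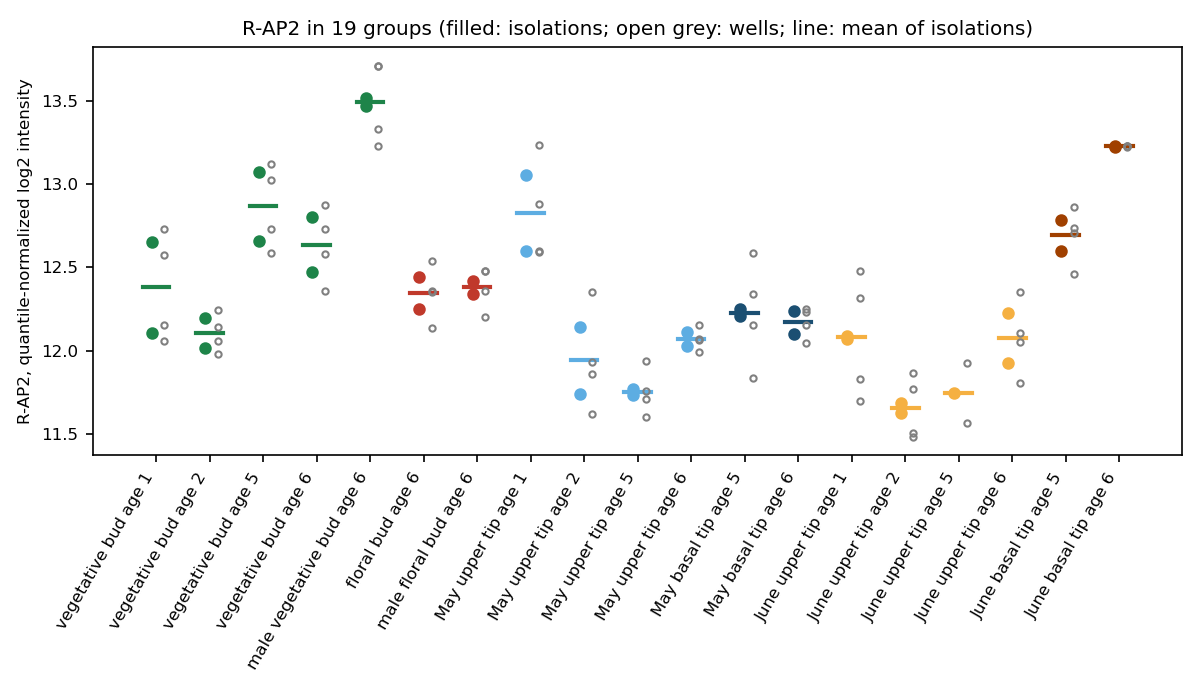
Level of R-AP2 in the 19 groups, with quantile-normalized log2 intensity on the vertical axis, filled points for isolations, open grey points for wells and lines for group means. Male vegetative buds of age 6 stand highest at 13.49 and June upper tips of age 2 lowest at 11.66.

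In the values as deposited the group means spanned 1.10, and their order correlated with the quantile-normalized order at a Spearman rho of 0.54 over 19 groups, as a description. May upper tips of age 1 then stood highest at 12.97, with June basal tips of age 6 at 12.92 and male vegetative buds at 12.89. June upper tips of age 2 were again lowest, at 11.87. The brightest values of an array also differed between organs and among the tips. Array maxima had a median of 13.56 over the 28 bud arrays (range 12.74 to 14.18) and of 14.34 over the 46 tip arrays (range 13.41 to 16.25). Among the tips the median was 13.67 in June basal, 14.23 in May basal, 14.94 in May upper and 15.74 in June upper tips. The part of the array maxima in the comparisons of buds with tips was not tested.

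The rank of R-AP2 within its array does not depend on the scale of that array. Quantile normalization rests on these ranks, so they add no separate evidence to its values. In male vegetative buds R-AP2 ranked between 2 and 4, and in June basal tips of age 6 it ranked 4 on each array. In May upper tips of age 1 it ranked between 4 and 8, while in those of age 5 it ranked between 14.5 and 19.5. June upper tips of age 2 gave ranks of 16 to 21. The median rank was 8.75 over bud arrays and 12 over tip arrays. Deposited values of R-AP2 went the other way, with medians of 12.205 over bud arrays and 12.38 over tip arrays.

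**Figure D2:**
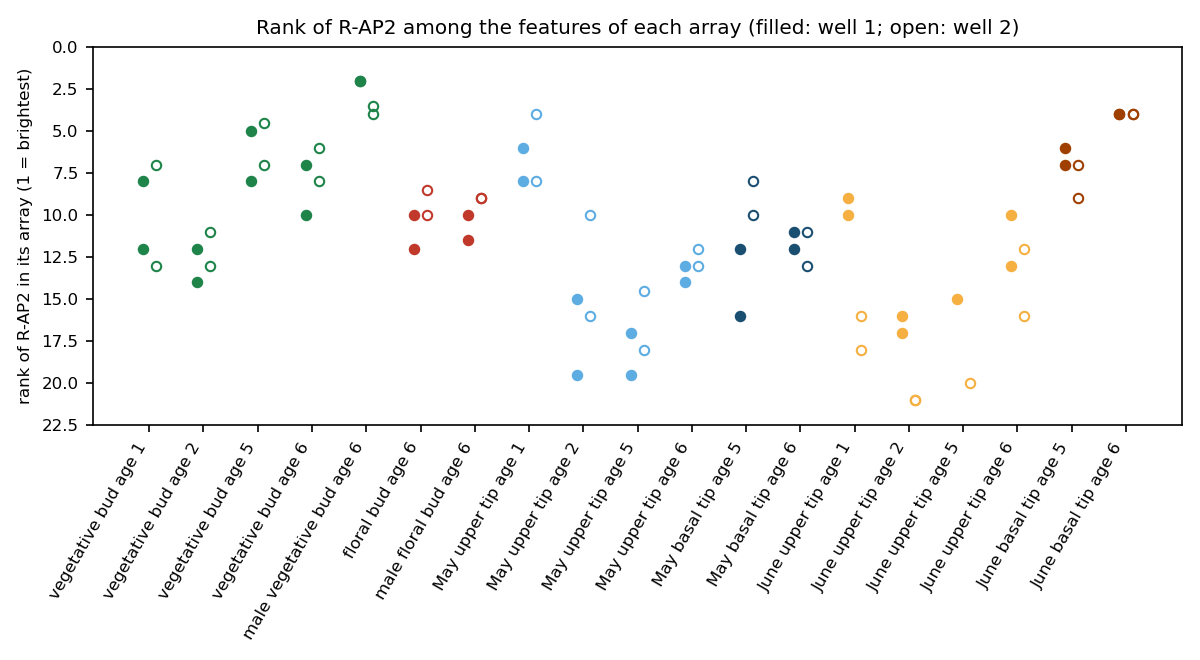
Rank of R-AP2 among the oligos of each array by group, where 1 is the brightest, with filled points for the first well and open points for the second. Ranks run from 2 in male vegetative buds to 21 in June upper tips of age 2.

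Floral buds had less R-AP2 signal than vegetative buds at age 6, and most of the difference lay in the male trees. In male trees the isolations stood at 12.34 and 12.42 in floral buds and at 13.47 and 13.52 in vegetative buds. Both floral isolations lay below both vegetative ones, and the difference was -1.11 ± 0.20 (SE, n = 2 and 2). In the trees of unstated sex the floral isolations stood at 12.45 and 12.25 and the vegetative ones at 12.80 and 12.47. These did not overlap either, though the nearest were 12.45 and 12.47, and the difference was -0.29 ± 0.20 (SE, n = 2 and 2).

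Over both kinds of tree the floral buds were lower by a difference of -0.70 ± 0.14 (SE, n = 4 and 4 isolations). Isolations that did not overlap in the matched pairs, in 1 direction throughout, were found for 36.4% of all oligos. The share was 65.4% within the male trees and 54.4% within the others, so a lack of overlap between 2 and 2 isolations is common on this array. The difference in male trees was larger than that in the others by -0.82 ± 0.28 (SE), which is -0.69 to -0.85 over the 5 scalings of the arrays tried. In trees of unstated sex the floral difference ran from -0.30 to -0.04 over the scalings, and the isolations overlapped under each scaling but quantile normalization. Without isolation a of the vegetative buds it was -0.12. In male trees it ran from -1.11 to -0.78. As the buds are bulk samples, fewer cells of a type and less RNA per cell cannot be told apart.

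The tree types lay apart in vegetative buds and overlapped in floral buds. Male vegetative buds stood above those of unstated sex at the same age by 0.86 ± 0.20 (SE, n = 2 and 2), and 57.6% of oligos had isolations that did not overlap in this comparison. The wells gave unequal sizes, 1.16 from the first wells and 0.55 from the second. Male floral buds differed from the others by 0.03 ± 0.20 (SE, n = 2 and 2), with overlapping isolations, where 47% of oligos did not overlap. By size of this difference R-AP2 ranked 18 among the 217 oligos in vegetative buds and 201 in floral buds. One of the 2 vegetative isolations of unstated sex lay in another well-difference set than the male buds. Against the isolation of the same set, at 12.47, the male vegetative buds were higher by 1.02.

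The floral genes are given beside this comparison. The mean level over the 6 floral identity genes was 6.39 and 7.37 in the isolations of male vegetative buds and 7.53 and 7.73 in vegetative buds of unstated sex, so the male isolations were further apart than the gap between tree types. All 6 of 6 had a lower mean in the male ones, as had 49.8% of all oligos, and PTLF (9.35 against 9.49) and PTD (5.91 against 5.98) were close. Neither the list nor its genes were tested in this comparison. In vegetative buds of ages 1, 2 and 5 this mean lay between 5.92 and 6.23. It lay between 10.36 and 11.28 in floral buds. The part of floral tissue in the R-AP2 difference between vegetative buds was not tested.

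R-AP2 was higher at the later ages in vegetative buds and lower at the later ages in May upper tips. In vegetative buds the isolations stood at 12.11 and 12.65 at age 1, at 12.20 and 12.02 at age 2, at 13.07 and 12.66 at age 5 and at 12.80 and 12.47 at age 6. Both isolations of age 5 lay above all those of ages 1 and 2, though the lower one, at 12.66, barely exceeded the higher isolation of age 1, at 12.65, while those of age 6 overlapped with age 1. For age 5 against ages 1 and 2 no share over all oligos is given here. The difference from age 2 to age 5 was 0.76 ± 0.20 (SE, n = 2 and 2) and 0.49 to 0.76 over the 5 scalings. From age 1 to age 2 the difference was -0.27 ± 0.20 and from age 5 to age 6 it was -0.23 ± 0.20 (SE, n = 2 and 2 each), both with overlapping isolations. Ages 5 and 6 together exceeded ages 1 and 2 by 0.51 ± 0.14 (SE, n = 4 and 4), with overlapping isolations, where 24.4% of oligos did not overlap.

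In May upper tips the isolations stood at 12.60 and 13.06 at age 1, at 11.74 and 12.14 at age 2, at 11.74 and 11.77 at age 5 and at 12.03 and 12.11 at age 6. Both isolations of age 1 lay above every isolation of the later ages. The share of oligos set apart in this way is not given here. The difference from age 1 to age 2 was -0.88 ± 0.20 (SE, n = 2 and 2) and -0.89 to -0.54 over the scalings. Ages 5 and 6 together stood below ages 1 and 2 by a difference of -0.47 ± 0.14 (SE, n = 4 and 4). The isolations overlapped because age 2 was already low, and 4.61% of oligos did not overlap. All these isolations belong to 1 well-difference set.

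In June upper tips the isolations stood at 12.09 and 12.07 at age 1, at 11.63 and 11.69 at age 2, at 11.75 for the single isolation of age 5 and at 12.23 and 11.93 at age 6. The isolations of age 1 lay within the range of age 6, and those of age 2 were the lowest. The difference from age 1 to age 2 was -0.42 ± 0.20 (SE, n = 2 and 2), and -0.86 to -0.42 over the scalings. Age 1 lies in a well-difference set of its own here, and the part of the set in this step was not tested. Ages 5 and 6 together differed from ages 1 and 2 by 0.04 ± 0.16 (SE, n = 3 and 4), with overlapping isolations, where 16% of oligos did not overlap.

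**Figure D3:**
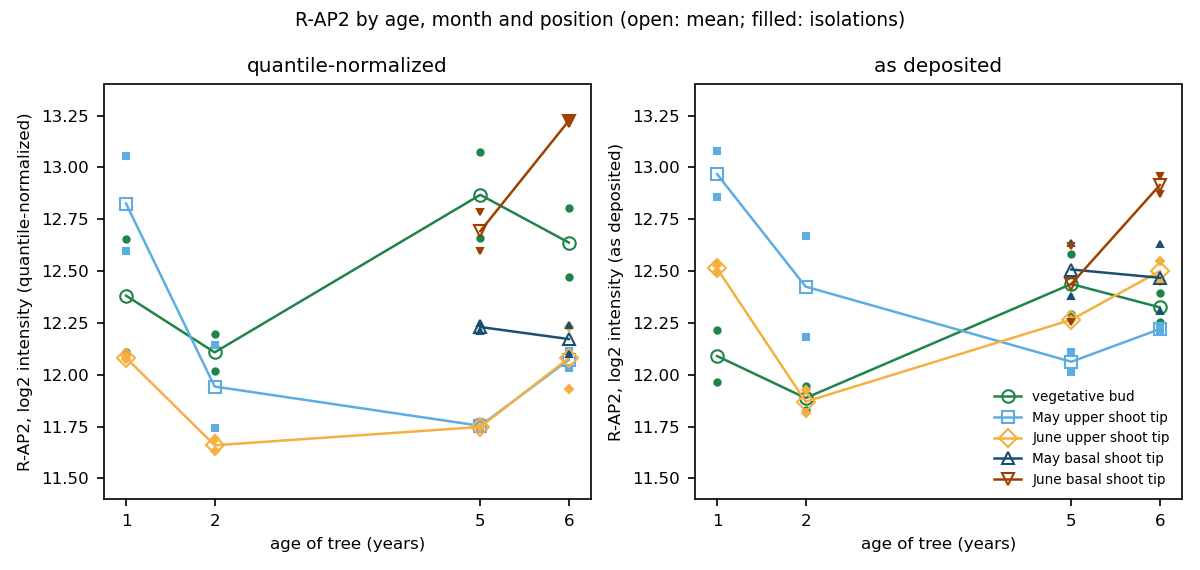
Level of R-AP2 by age of the tree in years, one panel for quantile-normalized and one for deposited log2 intensities, with open symbols and lines for group means and filled points for isolations. Vegetative buds are higher at age 5 (12.87, quantile-normalized) than at age 2 (12.11), while May upper tips are highest at age 1 (12.83) and lower at the later ages.

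Basal tips had more R-AP2 signal than upper tips of the same month and age, under each of the 5 scalings, though the isolations of some pairs overlapped and the size depended on the scaling. In June at age 6 the basal isolations stood at 13.23 and 13.22 and the upper ones at 12.23 and 11.93, a difference of 1.14 ± 0.20 (SE, n = 2 and 2), and 0.38 to 1.14 over the scalings. In June at age 5 the basal isolations stood at 12.79 and 12.60 against the single upper isolation at 11.75, a difference of 0.94 ± 0.24 (SE, n = 2 and 1). In these 2 pairs the basal isolations lay above all upper ones under quantile normalization. As deposited and with median-centred arrays the isolations of June at age 5 overlapped.

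In May at age 5 the basal isolations stood at 12.25 and 12.21 and the upper ones at 11.74 and 11.77, and the difference was 0.48 ± 0.20 (SE, n = 2 and 2). In May at age 6 the isolations overlapped, at 12.10 and 12.24 in basal and at 12.03 and 12.11 in upper tips, and the difference was 0.10 ± 0.20 (SE, n = 2 and 2). As deposited and with median-centred arrays the basal isolations of May at age 6 lay above the upper ones. Over the 4 pairs the basal tips were higher by 0.67 ± 0.11 (SE, n = 8 and 7), with no overlap in 3 of 4 pairs. A lack of overlap in all 4 pairs, which R-AP2 did not have, was found for 16.1% of oligos. The share for 3 of 4 pairs is not given here. Over the scalings the difference over the 4 pairs ran from 0.30, with median-centred arrays, to 0.67. In June at age 5 it was 0.04 to 0.96 and in May at age 5 it was 0.14 to 0.54. As deposited and with median-centred arrays the pair of May at age 5 was the largest, at 0.45 and 0.54, and not June at age 6, at 0.42 and 0.38. Array maxima had a median of 13.67 in June basal and of 15.74 in June upper tips. In May the medians were 14.23 in basal and 14.94 in upper tips, and the ages differed. At age 5 the May maxima ran from 13.71 to 14.57 in basal and from 15.79 to 16.25 in upper tips. At age 6 they ran from 13.91 to 14.44 in basal and from 13.72 to 14.05 in upper tips. Their part in the difference was not tested.

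Basal tips had more R-AP2 signal in June than in May under quantile normalization, with the larger difference at age 6. The ages were not tested against each other. At age 6 the June isolations stood at 13.23 and 13.22 and the May ones at 12.10 and 12.24, a difference of 1.05 ± 0.20 (SE, n = 2 and 2) that ran from 0.29 to 1.05 over the scalings. At age 5 the June isolations stood at 12.79 and 12.60 and the May ones at 12.25 and 12.21. That difference was 0.46 ± 0.20 (SE, n = 2 and 2) and changed sign over the scalings, from -0.20 to 0.46.

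Over both ages June basal tips were higher by 0.76 ± 0.14 (SE, n = 4 and 4), where 30.4% of oligos did not overlap in either pair, and by 0.05 once arrays were centred on their median. In June, basal tips of age 6 exceeded those of age 5 by 0.53 ± 0.20 (SE, n = 2 and 2), and by 0.48 to 0.55 over the scalings, with no overlap. In May the same step was -0.06 ± 0.20 (SE, n = 2 and 2). Over both months the step was 0.24 ± 0.14 (SE, n = 4 and 4), with isolations that did not overlap in 1 of the 2 months. A lack of overlap in both months, which R-AP2 did not have, was found for 16.1% of oligos. The share for 1 of the 2 months, or for June alone, is not given here.

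In upper tips R-AP2 was lower in June than in May at the young ages. At age 1 the June isolations stood at 12.09 and 12.07 and the May ones at 12.60 and 13.06, a difference of -0.74 ± 0.20 (SE, n = 2 and 2), and -0.75 to -0.41 over the scalings. At age 2 it was -0.28 ± 0.20 (SE, n = 2 and 2), with June below May in all isolations, and -0.70 to -0.28 over the scalings. The wells of age 2 were unlike. The first wells overlapped, at 11.77 and 11.87 in June and at 11.62 and 11.93 in May. Only the second wells lay apart, at 11.49 and 11.51 in June and at 11.86 and 12.35 in May. At age 5 the difference was -0.01 ± 0.24 (SE, n = 1 and 2) and at age 6 it was 0.01 ± 0.20 (SE, n = 2 and 2), and both changed sign with the scaling.

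Over the 4 ages June upper tips were lower by a difference of -0.26 ± 0.11 (SE, n = 7 and 8), with no overlap in 2 of 4 ages. A lack of overlap at all 4 ages, which R-AP2 did not have, was found for 9.86% of oligos. The share for 2 of 4 ages is not given here. For the difference over the 4 ages, the first wells gave 0.03 and the second -0.54. The May upper tips and the June upper tips share no well-difference set, and the part of the set was not tested.

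Vegetative buds stood above June upper tips at each age under quantile normalization, by 0.61 ± 0.11 over the 4 ages (SE, n = 8 and 7), and 24.9% of oligos did not overlap at any age. At age 5 the difference was 1.12 ± 0.24 (SE, n = 2 and 1). Against May upper tips the vegetative buds were higher by 0.35 ± 0.10 (SE, n = 8 and 8), with no overlap at ages 5 and 6. A lack of overlap at all ages, which R-AP2 did not have, was found for 25.8% of oligos. The share for ages 5 and 6 alone is not given here. At age 1 the May tips were the higher ones, by a bud minus tip difference of -0.44 ± 0.20 (SE, n = 2 and 2), with overlap.

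Both bud minus tip differences changed sign with the scaling. In the values as deposited they were -0.10 against June and -0.23 against May tips, and with arrays centred on their median they were -0.24 and -0.40. Buds and tips also differ in sex label, as the tips come from female trees. By age, the bud minus May tip difference kept its sign over the scalings at age 1 (-1.01 to -0.44) and at age 5 (0.27 to 1.11). It changed sign at ages 2 and 6. The bud minus June tip difference kept its sign at age 2 alone (0.01 to 0.48). No order of vegetative buds and upper tips in R-AP2 over the ages together is given from these arrays. Ranks, on which quantile normalization rests and which therefore add no separate evidence, had medians of 8 in vegetative buds of unstated sex, 13.5 in May and 16 in June upper tips.

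**Figure D4:**
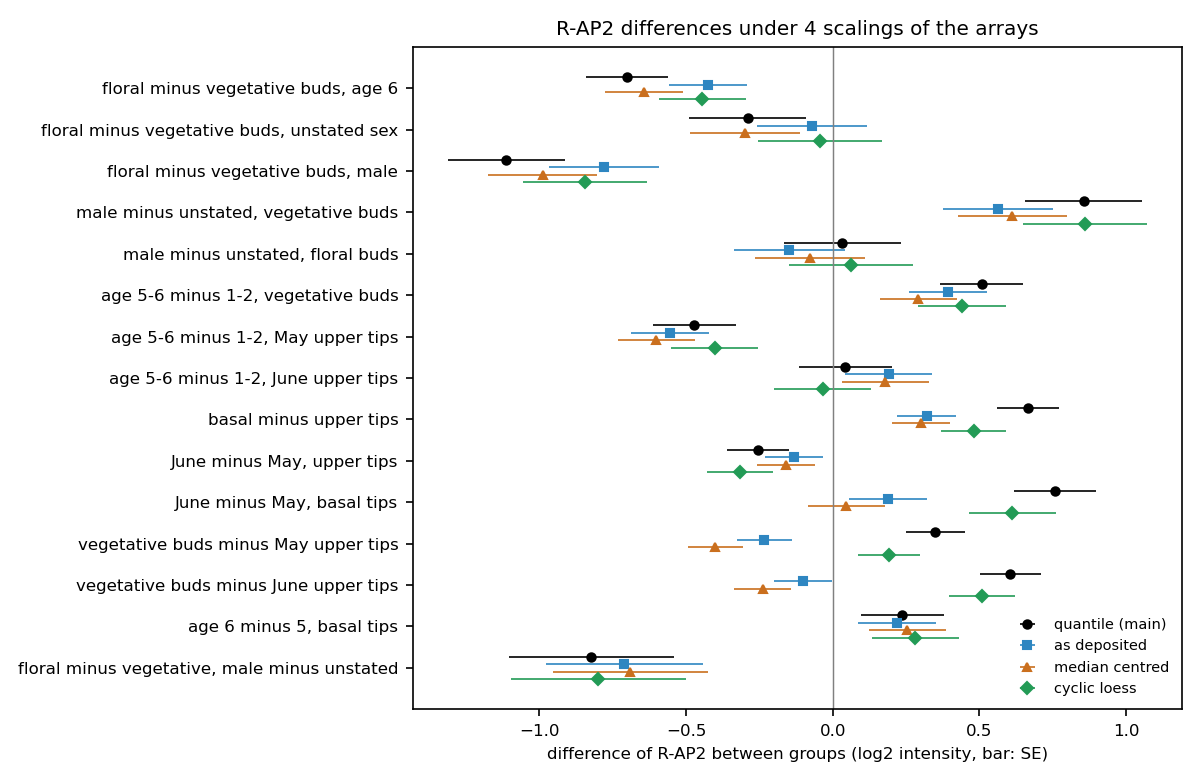
Differences of R-AP2 between groups in log2 intensity, with bars for the SE, under 4 of the scalings of the arrays. The floral minus vegetative difference in male trees stays below 0 (-1.11 to -0.78), while vegetative buds minus upper tips lie on both sides of 0.

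The flowering genes of the array give a setting for these differences. The list held 10 genes, and was tested with limma over all 217 oligos (Benjamini-Hochberg adjusted p under 0.05). In floral against vegetative buds, 29.5% of oligos passed, 21 higher and 43 lower, and 7 list genes rose and 1 fell. The list had a median difference of 1.88 against -0.07 over all oligos. PTAG1 and PTAG2, relatives of AGAMOUS, rose by 5.31 ± 0.41 and 4.61 ± 0.31 (SE), and PTD, a relative of DEFICIENS and a class B organ identity gene, by 2.50 ± 0.30. PTAP1-2A, a relative of the meristem identity gene APETALA1, rose by 5.59 ± 0.52 and PTLF, the poplar LEAFY gene, by 1.26 ± 0.16 (adjusted p from 3.25e-11 for PTAG2 to 1.62e-06 for PTLF by limma over all oligos). PCEN-L, a relative of CENTRORADIALIS, fell by 0.56 ± 0.20 (limma adjusted p = 0.0363), a call lost as deposited (adjusted p = 0.137), in the first wells (0.638) and in 5 of 8 fits without an isolation (0.0707 to 0.118). Those 5 left out isolation b of the floral or of the vegetative buds of unstated sex, either male floral isolation, or isolation a of the male vegetative buds. PTD did not pass in the first wells (0.0625) and PTCO11 not in the second (0.126). R-AP2 was lower in the same buds by the -0.70 given above, and ranked 48 by size among the 217 oligos.

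With age in vegetative buds, 29.5% of oligos passed, 33 higher and 31 lower, and 2 list genes rose and 2 fell. The median difference was 0.14 over the list and 0.03 over all oligos. PTLF rose by 0.74 ± 0.16 and PTAP1-2A by 2.18 ± 0.52, while PTCO11 and PTCO12, named for the photoperiod gene CONSTANS, fell, with differences of -1.18 ± 0.15 and -1.58 ± 0.17 (SE, limma adjusted p from 3.06e-07 to 0.00227). R-AP2 had the 0.51 given above in that contrast, rank 74 by size.

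Between basal and upper tips 46.1% of oligos passed, 63 higher and 37 lower, and 4 list genes rose and 1 fell. Both medians were 0.12. PTCO11 rose by 0.92 ± 0.11, PTCO12 by 0.79 ± 0.13, PTLF by 0.45 ± 0.12 and PTAG2 by 0.70 ± 0.23, and PTD fell by 1.08 ± 0.23 (SE, limma adjusted p from 5.05e-07 to 0.0156). In the second wells PTLF (0.0911) and PTAG2 (0.179) did not pass. R-AP2 ranked 62 by size there.

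Between June and May upper tips 35.9% of oligos passed, 37 higher and 41 lower, and 1 list gene rose and 4 fell. The median difference was -0.33 over the list and -0.01 over all oligos. The differences were -1.28 ± 0.13 for PTCO12, -0.77 ± 0.11 for PTCO11, -0.48 ± 0.15 for PCEN-L and -0.29 ± 0.11 for PMFT, named for MOTHER OF FT, which all fell, while PTLF rose by 0.40 ± 0.12 (SE, limma adjusted p from 3.09e-07 to 0.036). PMFT did not pass in 9 of the 14 fits that left an isolation out (adjusted p up to 0.0973), namely isolation a of age 1 and b of ages 2 and 6 in June, and b of age 1, a of age 5 and either one of ages 2 and 6 in May. It did not pass either without the dimmest oligos (0.0713). In the first wells PMFT (0.29), PCEN-L (0.75, with its sign turned) and PTLF (0.0532) did not pass. Between vegetative buds and May upper tips 60.4% of oligos passed, 71 higher and 60 lower, and 3 list genes rose and 4 fell, with a median of -0.13 over the list and 0.003 over all oligos. PTLF, PTAP1-1B and PTAP1-2A rose, and PTD, PTCO11, PTCO12 and PMFT fell. PTAP1-2A did not pass in the first wells (limma adjusted p = 0.0738) or with median-centred arrays (0.104). The second wells lost PTCO11 (0.106, with its sign turned) and PTCO12 (0.0796). PTAP1-2A and PTCO12 were also lost in some fits without an isolation. R-AP2 ranked 129 by size between June and May upper tips, and 132 between vegetative buds and May upper tips.

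Over the 19 group means, the named gene most like R-AP2 was PTPGM, with r = 0.81 by Pearson and rho = 0.80 by Spearman. These r values describe 212 oligos over means that share isolations, arrays and scaling, and carry no p. The median r over all of them was 0.06, with 9 above 0.7 and 2 below -0.7. PTPGM was highest in June basal tips of age 6, at 11.92, and lowest in June upper tips of age 6, at 10.06. Within the 7 bud groups its r with R-AP2 was 0.78 and within the 12 tip groups 0.83. In the values as deposited r was 0.39 over the 19 groups, 0.59 in buds and 0.50 in tips. With arrays centred on their median it was 0.51 over the 19 groups.

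PTCRY1D, named for a cryptochrome blue light receptor, followed at r = 0.71, with 0.92 in buds and 0.69 in tips. As deposited its r was 0.27 over the 19 groups, 0.77 in buds and 0.38 in tips. PTID1L1A had r = 0.70 and 0.08 as deposited, and HB1 had r = 0.57 and 0.07 as deposited. The clones UM54TA09 and V012H04 had r of 0.80 and 0.79, and of 0.25 and 0.34 as deposited. At the other end stood PttIAA4 at -0.64 and PttIAA5 at -0.51, named for auxin-induced Aux/IAA genes, and PMFT at -0.47. Their r as deposited was -0.09, -0.03 and 0.05. The clones UM91TD06 and UM65TE06 had the lowest r of all, -0.79 and -0.77, with -0.30 and -0.26 as deposited and 0.06 and 0.05 with median-centred arrays. The r of PMFT, PttIAA4 and PttIAA5 also turned positive with median-centred arrays, to 0.40, 0.15 and 0.27, and that of PTID1L1A turned to -0.15. PttIAA4 separated mainly the tips, with r = -0.71 there and 0.05 in buds, and as deposited -0.42 and 0.09.

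**Figure D5:**
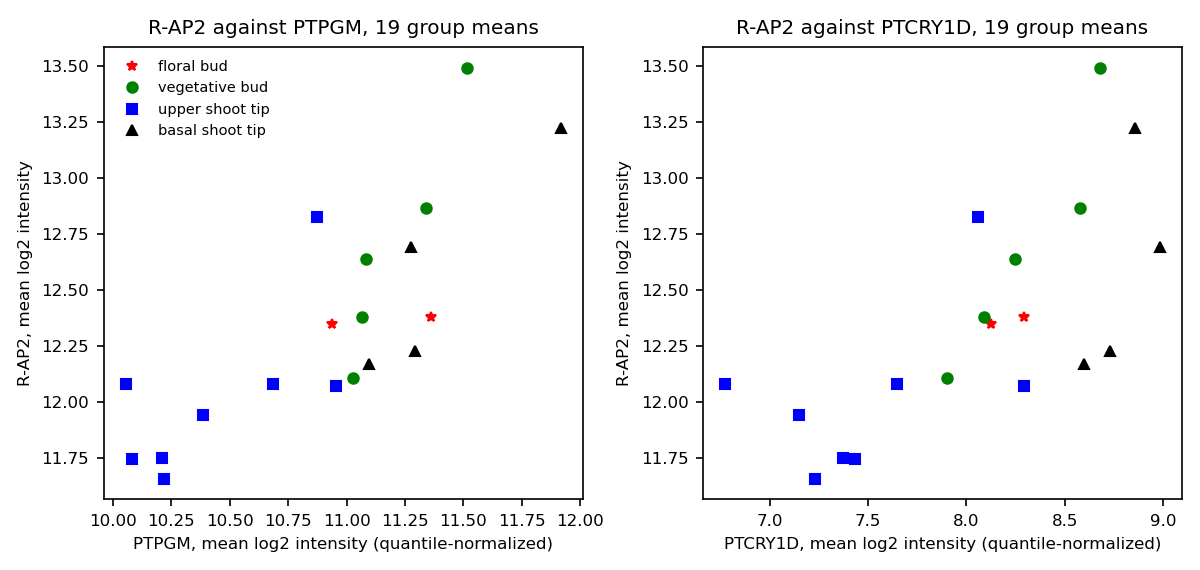
Mean quantile-normalized log2 intensity of R-AP2 against that of PTPGM and of PTCRY1D, one point for each of the 19 groups, marked by organ. R-AP2 and PTPGM vary together over buds (r = 0.78) and tips (r = 0.83), and June basal tips of age 6 are highest in PTPGM at 11.92. In the values as deposited, r was 0.59 in buds and 0.50 in tips.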

How the data were processed

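The authors' deposited table holds a value per oligo and array, read as log2 intensity from its range because no log base is given. For scanner, background correction and earlier scaling, the sources used here give nothing. R-AP2, its comparisons and the gene lists were chosen with earlier results of these data known. Arrays were quantile-normalized, wells averaged, and a mean per group fitted with limma 3.58.1 in R 4.3.3 over 37 isolations (18 residual degrees of freedom). The 216 missing values stayed missing, none in R-AP2. Scalings compared were quantile, deposited, median-centred, cyclic loess and quantile without the dimmest 25% of oligos. Named genes are the flowering list and, by Pearson r with R-AP2 over group means, the 4 highest and 3 lowest gene-like IDs and the 2 highest and 2 lowest clones. The isolation letters did not pair samples (deviations of 153 group pairs correlated at a median of -0.008, range -0.28 to 0.30). The fit was tested on simulated data. In 0 cases were arrays identical.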

Additional observations from a re-analysis of the deposited data

Results flagged for a closer look

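In June basal tips of age 6 the lowest of the 4 arrays had R-AP2 at 13.2212 and the others at 13.2268, so that its gap filled the whole range. All 4 arrays rank R-AP2 4, and the gap is far under the spread between wells elsewhere. As deposited these arrays stood at 13.07, 12.85, 12.85 and 12.89. With 18 groups examined, a group can be marked by chance.

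R-AP2 was higher at ages 5 and 6 than at ages 1 and 2 in vegetative buds (0.51) and lower in May upper tips (-0.47), with every older isolation above the younger mean in the buds and below it in the tips. The differences are apart by 0.98, and their difference was not tested. June minus May at age 5 was 0.46 in basal and -0.01 in upper tips, 0.47 apart, with 1 June isolation in the upper tips and no test. In the values as deposited these were -0.07 and 0.20. In all, 12 pairs of differences were compared.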

How the results depend on the processing

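All values are log2 differences of R-AP2 unless stated. As deposited, floral minus vegetative buds was -0.43, in unstated trees -0.07 and in male trees -0.78. Male minus unstated vegetative buds was 0.56, basal minus upper tips 0.32, June minus May basal tips 0.19, vegetative buds minus May tips -0.23 and minus June tips -0.10, the last pair reversed, and the r with PTPGM 0.39. Centred on array medians, the male vegetative difference was 0.61, age in vegetative buds 0.29, basal minus upper 0.30, June minus May basal 0.046, buds minus May tips -0.40 and minus June tips -0.24 (both reversed), and r 0.51. With cyclic loess, floral minus vegetative buds was -0.44, unstated -0.045, male -0.84, and basal minus upper 0.48. Array maxima differ between organs and among groups of tips, and the cause of these shifts was not tested.

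Without the dimmest 25% of oligos, 162 of them and 4 of 10 flowering genes were kept, and flowering calls were 2 in floral buds, 3 in basal tips, 3 in June tips and 4 in buds against May tips, fewer by construction. The first wells gave -1.43 for the male floral difference, 1.16 for male vegetative buds, 0.031 for June minus May upper tips (reversed), 0.36 for buds minus June tips, -1.13 for the difference between tree types and 2 flowering calls in June tips. The second wells gave -0.80, 0.55, -0.54, 0.85 and -0.52 for the same 5 differences. The cause was not tested.

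The well-difference set as a term, chosen after seeing the data, gave 0.62 for buds minus May tips and could not be fitted for June tips by age, June minus May upper tips and buds minus June tips. Within set 3, age in June tips was 0.25, basal minus upper 1.04, June minus May basal 0.57 and basal age 6 minus 5 -0.040. Within set 2 the last was 0.63. Every group but the June upper tips of age 5 held both isolation letters. The isolation letter as a replicate block therefore could not move R-AP2 differences between the other groups, and is no check of them. With that block, basal minus upper was 0.67 and June minus May upper -0.26. In all, 20 of 20 results moved by less than the residual SD of R-AP2, 0.18, or, for counts, by less than 1.5 times. Leaving out each isolation in turn moved no R-AP2 difference by more than that SD, with floral minus vegetative buds from -0.78 to -0.62 and, in unstated trees, from -0.46 to -0.12. Of 15 differences, 2 near 0 changed sign: male minus unstated floral buds (-0.07 to 0.13) and age in June upper tips (-0.03 to 0.12). The single isolation of June tips of age 5 could not be left out. Background correction could not be varied, as no background values came with the table.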
